A study of Mus musculus with 4 samples.

Results

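The primary granule and early granulocyte genes described here are Mpo, Elane, Ctsg, Prtn3, Ms4a3, Cebpa, Cebpe, Gfi1, Csf3r and Fcnb. They were taken by name, as every gene probe on the array that carries one of these symbols or a synonym. This gave 10 genes with 12 probes, Mpo and Fcnb having 2 probes each, out of 22786 genes or transcripts well above background on at least 1 array. All 12 probes were well above background on all 4 arrays.

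RNA came from bone marrow lineage-negative, Sca-1-positive, cKit-positive (LSK) cells, in which stem cells and multipotent progenitors of the blood are found, of male C57BL/6 mice aged 12 weeks. Cells of 4 genotypes were compared: WT, Aspp1-/-, p53-/- and Aspp1-/-p53-/-. WT mice are wild type and Aspp1-/- mice carry the Aspp1 knockout alone. The p53-/- cells come from Mx1-Cre(+)p53flox/flox mice, and the double knockout cells from mice of the genotype Mx1-Cre(+)Aspp1-/-p53flox/flox. Mice of every genotype, WT included, received pIpC, a synthetic double-stranded RNA that induces interferon and through it the Mx1 promoter, in 5 injections from 8 weeks of age, and cells were taken 4 weeks later. The series text gives 400 μg of pIpC for all, while the sample labels read 400, 401, 402 and 403 μg in that order of genotypes. The Mx1 promoter is not limited to blood cells, and no group had Mx1-Cre with intact p53, so loss of p53 and presence of Cre cannot be told apart. Each genotype is 1 array hybridised with RNA pooled from 3 mice, so no value has a replicate and no spread between mice can be given.

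Primary (azurophil) granules are the first granules made in the neutrophil lineage, at the promyelocyte stage, and they store myeloperoxidase and serine proteases. Their genes are switched on by C/EBPα together with PU.1 in granulocyte-monocyte progenitors, whereas the secondary and tertiary granule genes follow later under C/EBPε. Transcripts of the early programme are also found in a share of LSK cells that have begun myeloid priming. In RNA of a sorted population, fewer cells of a kind and less RNA per cell cannot be told apart.

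Signals are Agilent processed intensities in arbitrary units. Differences are on the log2 scale after the arrays were scaled to their 75th percentiles, signals of 535 to 597, so they need not equal the ratio of the printed signals. A difference of at least 1, which is 2-fold, was called past the rule of size, and there is no test of a single comparison of 2 arrays. The scanner error of a difference was 0.20 for most of these probes and 0.22 for the brighter Fcnb probe in Aspp1-/- against WT. It is 1 SD from the error model of the scanner software, with the same multiplicative error of 0.1 on all arrays. It is not a measured spread, and a difference can exceed 1 SD without any change in level. Repeat spots of a probe on an array had a median SD of 0.0540 to 0.0555 on the log2 scale. Neither value holds any spread between mice. The share of all genes with a difference over the scanner error was not counted. Between 50.3% and 53.3% of probes were well above background on an array, and no spot was saturated. All arrays lay on 1 slide, WT and Aspp1-/- in row 1 and p53-/- and Aspp1-/-p53-/- in row 2. Ppp1r13b, which encodes Aspp1, had signals of 13182 (WT), 2247 (Aspp1-/-), 12759 (p53-/-) and 2060 (Aspp1-/-p53-/-), and Trp53, which encodes p53, had 730, 820, 164 and 169 in the same order. Both targeted genes were thus lower on the arrays whose labels give their loss. All 13 stem and multipotent progenitor markers examined, Kit, Ly6a (Sca-1) and Cd34 among them, were well above background on every array.

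The promoters of the 4 primary granule enzymes are shown first because their genes are the core of the programme and share 1 short word, GAGGAA, the core of PU.1-type sites. The letters are 250 bases upstream of the RefSeq start site on build GRCm38.p6, read 5′ to 3′ on the strand of the gene, with GAGGAA in capitals. They lie at chr10:79879417-79879666 (plus strand) for Prtn3, chr10:79886062-79886311 (plus strand) for Elane, chr11:87793534-87793783 (plus strand) for Mpo and chr14:56102575-56102824 (minus strand) for Ctsg.
Prtn3 promoter: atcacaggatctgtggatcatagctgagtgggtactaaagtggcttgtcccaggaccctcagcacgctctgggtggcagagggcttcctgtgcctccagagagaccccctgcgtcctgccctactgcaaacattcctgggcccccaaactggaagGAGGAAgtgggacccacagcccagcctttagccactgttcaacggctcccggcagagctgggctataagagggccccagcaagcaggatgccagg
Elane promoter: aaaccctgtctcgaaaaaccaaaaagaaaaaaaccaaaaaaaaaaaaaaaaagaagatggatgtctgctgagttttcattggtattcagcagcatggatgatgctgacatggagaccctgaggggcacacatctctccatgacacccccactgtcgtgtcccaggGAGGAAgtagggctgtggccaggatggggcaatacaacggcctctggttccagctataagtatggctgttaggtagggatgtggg
Mpo promoter: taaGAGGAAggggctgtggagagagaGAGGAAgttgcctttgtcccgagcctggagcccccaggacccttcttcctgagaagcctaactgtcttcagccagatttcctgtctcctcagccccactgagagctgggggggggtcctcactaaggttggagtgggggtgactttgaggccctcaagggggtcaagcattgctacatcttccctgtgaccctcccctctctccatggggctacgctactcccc
Ctsg promoter: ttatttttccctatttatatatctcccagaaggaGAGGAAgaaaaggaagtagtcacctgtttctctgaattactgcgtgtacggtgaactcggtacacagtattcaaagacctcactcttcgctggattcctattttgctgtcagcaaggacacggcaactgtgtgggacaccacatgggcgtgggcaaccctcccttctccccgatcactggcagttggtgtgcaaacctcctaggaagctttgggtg

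GAGGAA, searched on both strands, was found 89 bases before the start site of Prtn3, 79 bases before that of Elane, 241 and 218 bases before that of Mpo and 210 bases before that of Ctsg. Csf3r also held it, 80 bases before its start site. RefSeq promoters were matched for 9 of the 10 genes, Cebpe having none in the table, and 5 of these 9 held the word. Of all 32851 promoters of the same length, 23.3% held it. The C/EBP-type word TTNCNNAA was in the promoters of 3 of 9 genes, Fcnb, Gfi1 and Ms4a3, against 36.8% of all promoters. CCAAT was in 3 of 9 and 33.8%, and TATAAA in 2 of 9 and 12.4%. A match is a description of the letters and not evidence of binding, and the absence of a word says only that it is not in these 250 bases.

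Prtn3 and Elane are neighbours on chromosome 10 in these coordinates. Their probes lie at chr10:79343869-79344685 and chr10:79350902-79350961 (both plus strand) on the mm9 build that the scanner files use. The 60-base Prtn3 probe is mapped to an interval of 817 bases, so it joins parts that are apart in the genome, as does the brighter Fcnb probe. It has 1 reading frame without a stop codon, as has the dimmer of the 2 Mpo probes, which lies at chr11:87615121-87615180 (plus strand). Their letters are shown because the 2 probes named Mpo lie at different places and the Prtn3 probe cannot be read from unspliced DNA as 1 stretch. Whether both Mpo probes read the same transcript was not tested.
Mpo probe, dimmer: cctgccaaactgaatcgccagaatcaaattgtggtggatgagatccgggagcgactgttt
Prtn3 probe: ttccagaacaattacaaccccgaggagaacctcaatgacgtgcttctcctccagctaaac

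None of the 4 primary granule enzymes differed by 2-fold between any of the 5 pairs of arrays compared. Their ranges over the 4 arrays were 0.20 for Mpo (brighter probe), 0.25 for Prtn3, 0.36 for Ctsg and 0.53 for Elane, and the largest difference from WT was that of Elane, 1.44-fold lower in Aspp1-/-. Mpo encodes myeloperoxidase, the haem enzyme that makes hypochlorous acid. Its brighter probe (chr11:87617840-87617899, plus strand, mm9) read 135026 (WT), 125067 (Aspp1-/-), 139876 (p53-/-) and 122623 (Aspp1-/-p53-/-). Against WT these were log2 differences of -0.18, 0.03 and -0.05, each within the scanner error. The dimmer Mpo probe read 20911, 19079, 24142 and 20236 in the same order, with differences of -0.20, 0.18 and 0.04. Both probes were lowest in Aspp1-/- and highest in p53-/- after scaling, and they gave opposite signs for Aspp1-/-p53-/- against WT, both under 0.05 in size.

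Elane encodes neutrophil elastase, a serine protease that degrades matrix and bacterial proteins. It read 9739 (WT), 7079 (Aspp1-/-), 9354 (p53-/-) and 7072 (Aspp1-/-p53-/-). The 2 arrays without Aspp1 were the lower ones, at -0.53 for Aspp1-/- less WT and -0.29 for Aspp1-/-p53-/- less p53-/-. The p53-/- array differed from WT by -0.08. The Elane probe is at chr10:79350902-79350961.

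Prtn3 encodes proteinase 3, the related protease that is the target of antineutrophil antibodies in vasculitis. Its signals were 5666 (WT), 5179 (Aspp1-/-), 5998 (p53-/-) and 4976 (Aspp1-/-p53-/-). The order of the arrays was that of Elane except that p53-/- came above WT, and the differences from WT, -0.20, 0.06 and -0.10, were within the scanner error.

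Ctsg encodes cathepsin G, a chymotrypsin-like protease of the same granules. Its probe (chr14:56718795-56718854, minus strand, mm9) read 39942 (WT), 38160 (Aspp1-/-), 45903 (p53-/-) and 43934 (Aspp1-/-p53-/-). Here the 2 arrays of Mx1-Cre mice were the higher ones, by 0.18 and 0.23 against WT, and Aspp1-/-p53-/- was 1.28-fold above Aspp1-/- (0.36). Ctsg thus followed another order of the arrays than Elane, the gene with which it shares storage in the granule.

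**Figure D1:**
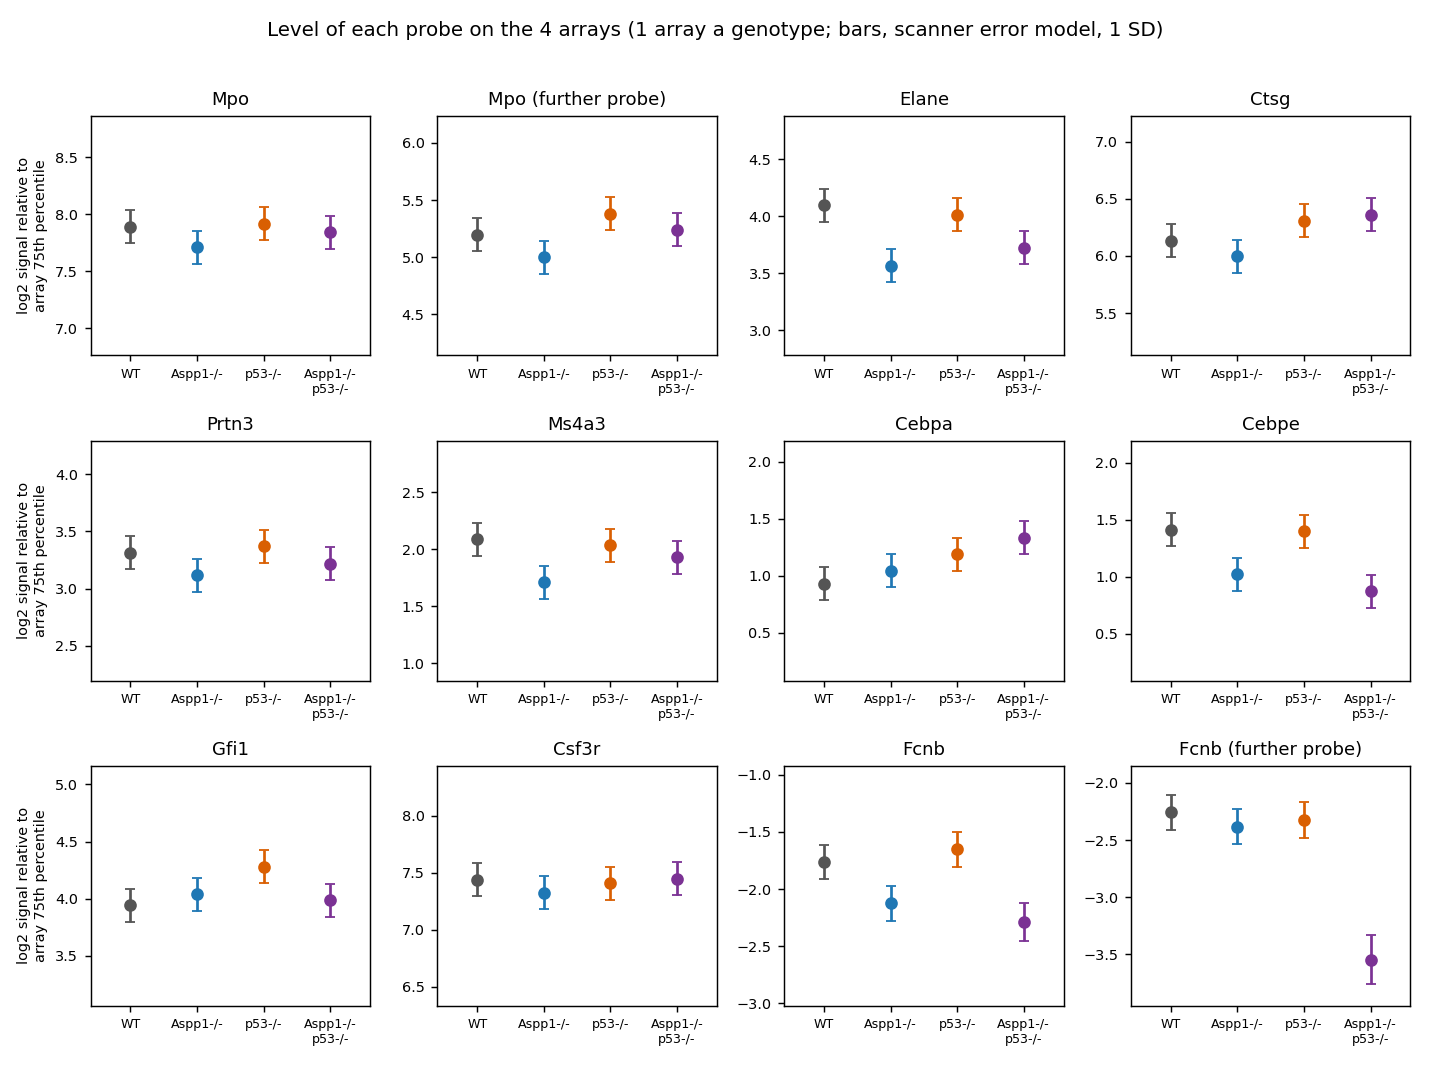
Level of each of the 12 probes (panels) on the 4 arrays (x axis, genotype), as log2 signal relative to the 75th percentile of its array (y axis, equal span in every panel), with bars of 1 SD from the scanner error model. The probes of Cebpa and Gfi1 have their lowest level in WT, and the other 10 have theirs on an array without Aspp1.

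Ms4a3 and Fcnb are both transcripts of the step from granulocyte-monocyte progenitor to promyelocyte. Ms4a3 encodes a membrane protein of the MS4A family whose expression marks granulocyte-monocyte progenitors. Its probe (chr19:11704055-11704114, minus strand, mm9) read 2424 (WT), 1954 (Aspp1-/-), 2373 (p53-/-) and 2039 (Aspp1-/-p53-/-). The lowest array was Aspp1-/-, at -0.38 against WT, while Aspp1-/-p53-/- differed from WT by -0.16 and from p53-/- by -0.10.

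Fcnb encodes ficolin B, a lectin of the complement system made by immature myeloid cells, and had the widest range of the 10 genes over the 4 arrays, 0.64 on the log2 scale. The brighter probe is mapped to chr2:27932285-27933768 (minus strand, mm9). It read 168 (WT), 137 (Aspp1-/-), 184 (p53-/-) and 109 (Aspp1-/-p53-/-). Both arrays without Aspp1 were below both arrays with it, with differences of -0.36 for Aspp1-/- less WT and -0.64, or 1.56-fold, for Aspp1-/-p53-/- less p53-/-.

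The second Fcnb probe (chr2:27933619-27933678, minus strand, mm9) lies inside the interval of the first. It read 119 (WT), 114 (Aspp1-/-), 116 (p53-/-) and 45.8 (Aspp1-/-p53-/-). It was 1 of the 12 probes to pass 2-fold anywhere, at -1.29 against WT, -1.22 against p53-/- and -1.16 against Aspp1-/-, each with a scanner error of 0.27, whereas Aspp1-/- differed from WT by -0.13. The probes thus agreed that Aspp1-/-p53-/- was lowest and differed on its size, and they differed on whether Aspp1-/- stood below WT by more than the scanner error. Fcnb is therefore reported as uncertain in size, and the brighter probe stands for the gene in the counts.

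Among the 13420 RefSeq genes well above background on all 4 arrays, the 5 whose pattern over the 4 arrays was most like that of the brighter Fcnb probe were Cdc42bpb, Cdh12, Nme5, Upb1 and Epb41l5. Likeness was the root mean square distance between levels centred on their mean, and it was 0.0279 for Cdc42bpb, 0.0340 for Cdh12, 0.0341 for Nme5, 0.0396 for Upb1 and 0.0411 for Epb41l5 on the log2 scale. No other of the 10 genes was among these 5.

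The 3 transcription factors did not move as a group. Cebpa encodes C/EBPα, which is required for the step from common myeloid to granulocyte-monocyte progenitor. Its probe (chr7:35906517-35906576, plus strand, mm9) read 1088 (WT), 1232 (Aspp1-/-), 1322 (p53-/-) and 1348 (Aspp1-/-p53-/-). It was highest in Aspp1-/-p53-/-, 1.32-fold above WT (0.40), with p53-/- at 0.26 and Aspp1-/- at 0.11 above WT.

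Cebpe encodes C/EBPε, which drives the later secondary granule programme and ends cell division in the lineage. Its probe (chr14:55329200-55329259, minus strand, mm9) read 1515 (WT), 1212 (Aspp1-/-), 1528 (p53-/-) and 980 (Aspp1-/-p53-/-). Both arrays without Aspp1 were lower than both arrays with it, with differences of -0.39 from WT in Aspp1-/- and -0.53 from p53-/- in Aspp1-/-p53-/-. Aspp1-/-p53-/- was 1.45-fold below WT (-0.54), the largest difference of the 10 genes in that comparison by the brighter probes, and p53-/- differed from WT by -0.01.

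Gfi1 encodes a zinc finger repressor that favours the granulocyte over the monocyte fate and also restrains stem cell division. Its probe (chr5:108145719-108145778, minus strand, mm9) read 8762 (WT), 9819 (Aspp1-/-), 11275 (p53-/-) and 8477 (Aspp1-/-p53-/-). The p53-/- array stood above the other 3, at 1.26-fold over WT (0.34) and with Aspp1-/-p53-/- at -0.30 against it. Aspp1-/- and Aspp1-/-p53-/- differed from WT by 0.10 and 0.04.

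Csf3r encodes the receptor for G-CSF, the main growth factor of the neutrophil lineage. Its probe (chr4:125721478-125721537, plus strand, mm9) read 98792 (WT), 95646 (Aspp1-/-), 98486 (p53-/-) and 93271 (Aspp1-/-p53-/-). Its range of 0.12 over the 4 arrays was the narrowest of the 10 genes, and no difference exceeded the scanner error. The last 30 bases of this probe are shown because the 16 in capitals are shared with other probes and belong to the B1 family of short interspersed repeats.
Csf3r probe, bases 31 to 60: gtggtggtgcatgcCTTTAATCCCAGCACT

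At least 1 stretch of 16 bases, not always the same one, was shared between the Csf3r probe and each of 10 other gene probes of the array. Of these, 6 held it on the same strand and 4 on the other. The 16 bases in capitals were held, on either strand, by 7 of the 10. In WT the 6 same-strand probes read from 63.3 to 389200 with a median of 11818, and 3 of the 6 were over 10000, as were 5.42% of all probes. How much of the Csf3r signal is Csf3r transcript was not tested, and its level is uncertain here. The Cebpa probe shared at least 1 stretch of 16 bases with each of 3 other probes, and the other 10 probes of the set shared none.

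In Aspp1-/- against WT, none of the 10 genes passed 2-fold. Of all genes or transcripts well above background on at least 1 of the 2 arrays, 3.48% did, and 0.521% of those well above background on all 4 arrays. The 10 genes had a median of -0.19, with 8 below 0 and 2, Cebpa and Gfi1, above it, and 4 (Elane, Cebpe, Ms4a3 and Fcnb) differed by more than their scanner error. Of all genes on at least 1 of the 2 arrays, 48.4% were below 0, and the median over all genes was 0.01. The middle 90% of genes on all 4 arrays lay between -0.35 and 0.31, a span that Elane, Cebpe, Ms4a3 and Fcnb left on the low side. In the same comparison 9 of 10 measured monocyte, macrophage and dendritic cell markers were below 0 (median -0.26), as were 7 of 9 measured B cell markers (median -0.35). So were 5 of 5 measured stromal and endothelial markers (median -0.58) and 6 of 6 megakaryocyte markers (median -0.05). Erythroid markers had 5 of 6 below 0 (median -0.14), and mast cell, basophil and eosinophil markers 5 of 7 (median -0.13). Other lists were split. T and natural killer cell markers had 3 of 6 below 0 (median -0.02), and stem and multipotent progenitor markers 6 of 13 (median 0.04). The part of these markers in the result was not tested.

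In p53-/- against WT, none of the 10 passed 2-fold, against 5.12% of all genes measured on at least 1 of the 2 arrays and 1.09% of those on all 4. The median of the 10 was 0.04, with 6 above 0 and 4 below it, from Elane at -0.08 to Gfi1 at 0.34. Of all genes on at least 1 of the 2 arrays, 46.6% were below 0. Gfi1 and Cebpa were the 2 that differed by more than the scanner error, and both lay inside the middle 90% of genes, -0.35 to 0.35.

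In Aspp1-/-p53-/- against WT, none of the 10 passed 2-fold by its brighter probe and Fcnb did by its second probe, against 5.92% of all genes on at least 1 of the 2 arrays and 2.27% of those on all 4. The median was -0.07, with 6 genes below 0, as were 48.5% of all genes on at least 1 of the 2 arrays. The values ran from Cebpe at -0.54 to Cebpa at 0.40. The middle 90% of genes lay between -0.51 and 0.45. Cebpe and Fcnb, both at the lower edge, are the 2 genes of the set that were below this span.

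**Figure D2:**
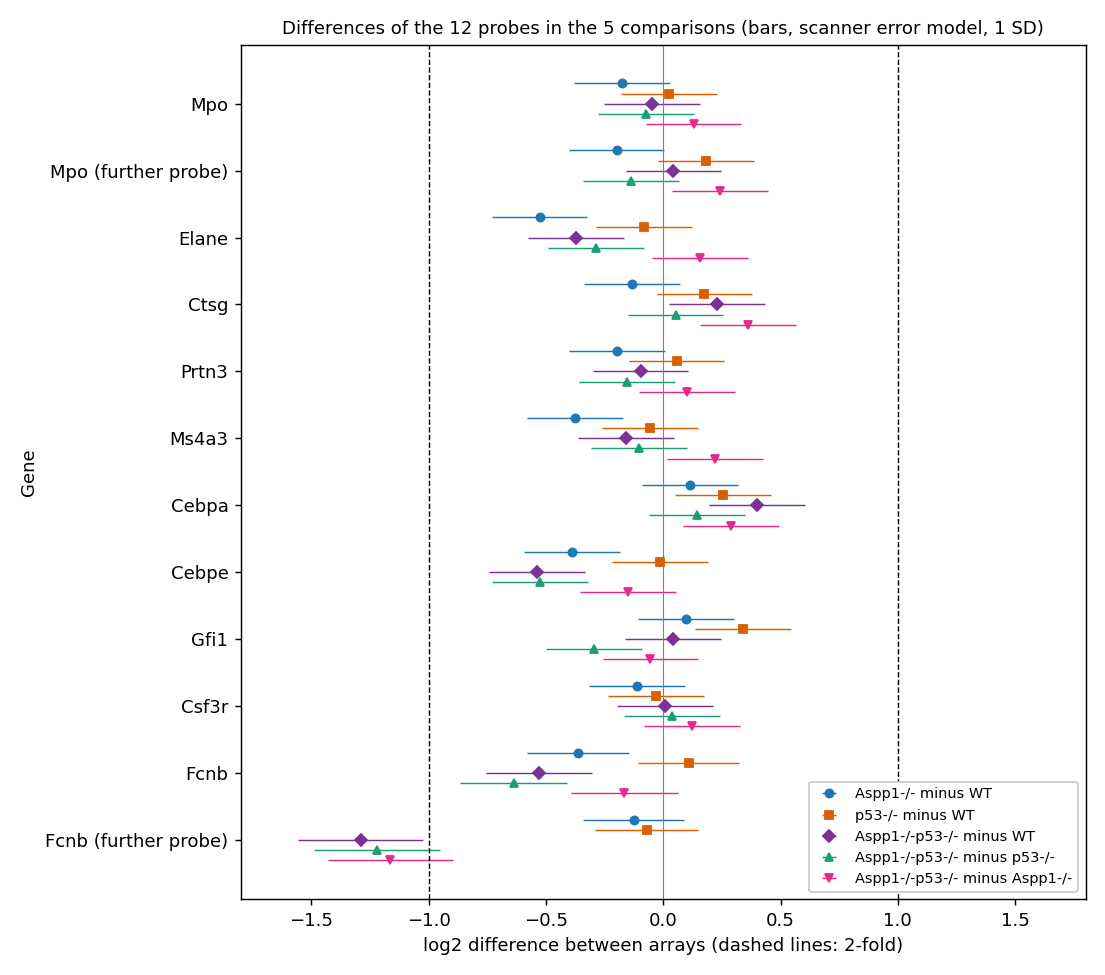
Log2 difference between 2 arrays (x axis) for each of the 12 probes (y axis) in the 5 comparisons (symbols), with bars of 1 SD from the scanner error model and dashed lines at 2-fold. The second Fcnb probe is past the line in the 3 comparisons with Aspp1-/-p53-/-, from -1.29 to -1.16, and every other symbol lies within the lines.

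The 2 comparisons within a p53 or Aspp1 background use the Aspp1-/-p53-/- array again, and so are not independent of the comparison with WT. In Aspp1-/-p53-/- against p53-/-, where 5.8% of all genes passed 2-fold (1.44% of those on all 4 arrays), none of the 10 did by its brighter probe. Their median was -0.13, with 7 below 0 (50.5% of all genes), and Fcnb (-0.64) and Cebpe (-0.53) were the lowest. In Aspp1-/-p53-/- against Aspp1-/-, with 5.62% of all genes past 2-fold (1.58% on all 4 arrays), none of the 10 did by its brighter probe. The median was 0.13, 7 were above 0 and 3 below it (51.6% of all genes were below), and Ctsg (0.36) was the highest. The second Fcnb probe passed in both.

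Loss of Aspp1 was measured on pairs of arrays with none in common, with p53 intact (Aspp1-/- against WT) and without it (Aspp1-/-p53-/- against p53-/-). The 2 differences had the same sign for 7 of the 10 genes, 6 of them (Mpo, Elane, Prtn3, Ms4a3, Cebpe and Fcnb) below 0 in both and 1 (Cebpa) above 0 in both. Over the 13420 RefSeq genes on all 4 arrays, 60.3% had the same sign in both, 26.8% being below 0 in both and 33.5% above. For loss of p53 the 2 differences had the same sign for 5 of 10, against 60.8% of all, with 4 (Mpo, Ctsg, Prtn3 and Cebpa) above 0 in both, as were 34.7% of all. The sign of a difference within the scanner error carries little information. Of the 6 genes below 0 under both losses of Aspp1, 3, namely Elane, Cebpe and Fcnb by its brighter probe, exceeded the scanner error both times. The share of all genes that do so was not counted, so it is not known whether 3 is more than usual. By its second probe Fcnb was also below 0 both times, and within the scanner error in Aspp1-/- against WT.

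By the brighter probes, the gap between the 2 effects of losing Aspp1 was largest for Gfi1, at -0.39 with a scanner error of 0.29: Gfi1 was 0.10 above WT in Aspp1-/- and -0.30 from p53-/- in Aspp1-/-p53-/-. For the other 9 genes the gap ran from -0.28 (Fcnb) to 0.27 (Ms4a3) and did not exceed its scanner error. By the second Fcnb probe the gap was -1.09, past its scanner error of 0.35 and larger in size than that of Gfi1, and by the dimmer Mpo probe it was 0.06.

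**Figure D3:**
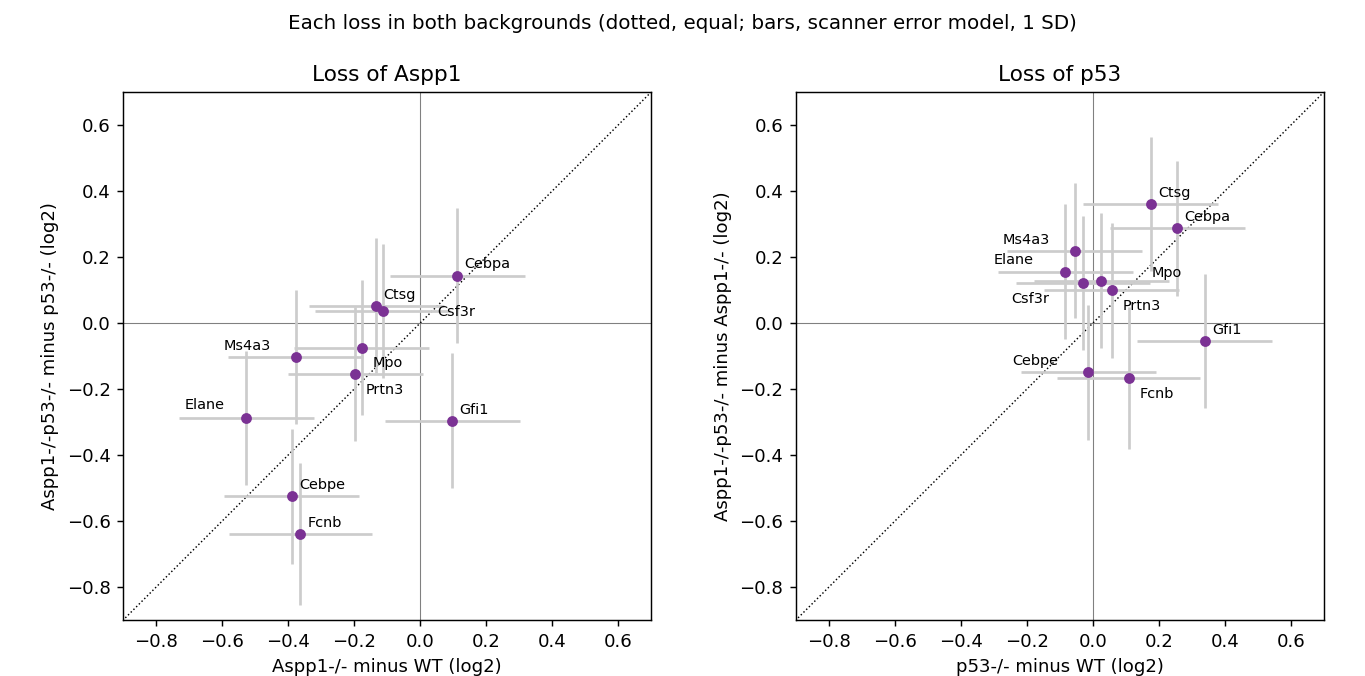
Log2 difference for loss of Aspp1 (left) and of p53 (right) in the 10 genes, with the other gene intact (x axis) and lost (y axis), bars of 1 SD from the scanner error model and a dotted line where both are equal. On the left Elane, Cebpe and Fcnb lie at or below -0.29 on both axes and Gfi1 lies off the line (0.10 and -0.30), and on the right most genes lie close to 0.

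The additive model, with a term for each loss, was the only fit that left a residual degree of freedom, and it left 1. Its residual is the departure of the 4 arrays from additivity. That departure holds any interaction of the losses together with differences between pools and arrays, which cannot be told apart. The errors of its terms are thus not a measure of the spread between mice. By limma with Benjamini-Hochberg adjustment over 22786 genes, 0 genes passed an adjusted p of 0.05 for either term, or 0% of those tested, while 1082 for Aspp1 and 1709 for p53 had an unadjusted p under 0.05. With no gene changed, a share of about 0.05 of the 22786 genes would have such an unadjusted p, so these counts alone show no change. On simulated data for the Aspp1 term, 0 of 100 genes changed by 2 and 0 of 100 changed by 4 on the log2 scale were called, so a missed threshold in this fit does not show that levels were equal. The largest Aspp1 terms of the set were those of Fcnb, -0.50 ± 0.11 (SE, limma adjusted p = 0.728), Cebpe, -0.46 ± 0.07 (limma adjusted p = 0.728), and Elane, -0.41 ± 0.10 (limma adjusted p = 0.728). The largest p53 terms were 0.27 ± 0.06 for Cebpa (limma adjusted p = 0.658) and 0.27 ± 0.08 for Ctsg (limma adjusted p = 0.662).

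Over the 4 arrays the median range of the 10 genes was 0.37, compared with 0.19 for the 13420 RefSeq genes on all 4 arrays, of which the middle 50% lay between 0.12 and 0.32. A range of 1 or more was reached by 2.41% of these genes and by 0% of the 10, each by its brighter probe. The second Fcnb probe had a range of 1.29.

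Further genes of the granulocyte programme were examined by list. The other primary granule proteins and their processing enzymes, 11 of 12 measured, had 0 past 2-fold in each of the 5 comparisons, with a median of -0.02 in Aspp1-/-p53-/- against WT and values from -0.36 to 0.35. Lyz2, which encodes lysozyme, read 2288 (WT), 2122 (Aspp1-/-), 2195 (p53-/-) and 1676 (Aspp1-/-p53-/-), and was the lowest of them at -0.36. Prss57, a primary granule protease, read 626, 673, 677 and 637, and Ctsc, the protease that activates the granule enzymes, 1715, 1936, 1760 and 1593 in the same order. Bpi was not well above background on any array.

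The genes of early myeloid progenitors also had 0 past 2-fold in each comparison, with 10 or 11 of 12 measured. Hp, which encodes haptoglobin, a haemoglobin-binding protein stored in granules, read 3166 (WT), 2385 (Aspp1-/-), 3001 (p53-/-) and 2131 (Aspp1-/-p53-/-). Like Elane, Cebpe and Fcnb it was lower on both arrays without Aspp1, at -0.48 from WT in Aspp1-/- and -0.38 from p53-/- in Aspp1-/-p53-/-. Hp was singled out after its values were seen.

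Of 20 transcriptional regulators of granulocyte development, all measured, 2 fell past 2-fold in Aspp1-/-p53-/- against WT, where 2.42% of all genes did. Trib1, a pseudokinase that directs C/EBPα to degradation, read 2823 (WT), 2027 (Aspp1-/-), 1288 (p53-/-) and 771 (Aspp1-/-p53-/-), a difference of -1.78 from WT in Aspp1-/-p53-/- and -1.16 in p53-/-. Klf4, a zinc finger factor of the monocyte lineage, read 19890, 20902, 14295 and 6229 in the same order and fell by 1.58. Both fell also in Aspp1-/-p53-/- against Aspp1-/- (Trib1 -1.24, Klf4 -1.59), and Klf4 against p53-/- (-1.08). Cebpb, the C/EBP factor of emergency granulopoiesis, was at -0.85 in Aspp1-/-p53-/- against WT and did not pass, and Spi1, which encodes PU.1, was at 0.01.

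Of 19 myeloid cytokine receptors and genes of G-CSF signalling, all measured, 0 passed 2-fold in each of the 5 comparisons. Csf1r, the receptor of the macrophage growth factor, read 4111 (WT), 3553 (Aspp1-/-), 4907 (p53-/-) and 4059 (Aspp1-/-p53-/-), and Stat3, which carries the G-CSF signal to the nucleus, 9417, 10701, 9431 and 8844 in the same order. Both were chosen after their values were seen.

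The secondary and tertiary granule and mature neutrophil genes, which follow the primary granule genes in development, had lower values than these on the Aspp1-/-p53-/- array. Of 16 measured, 11 fell past 2-fold against WT, where 2.42% of all genes did, and their median was -1.52 with genes below background at their bound (-1.70 by measured values), beside -0.07 for the 10 primary granule and early granulocyte genes. With normexp background correction 8 of the 16 fell past 2-fold, with a median of -1.11, beside -0.10 for the 10 genes. The difference between the lists was not tested. Ltf, which encodes lactoferrin, the iron-binding protein of secondary granules, read 2617 (WT), 2308 (Aspp1-/-), 2237 (p53-/-) and 649 (Aspp1-/-p53-/-), and fell by 1.92. Camp, the cathelicidin antimicrobial peptide, read 9124, 8579, 9293 and 2861 in that order and fell by 1.58. S100a8, a subunit of the calcium-binding protein calprotectin, read 18744, 15697, 15936 and 5418 and fell by 1.70. For these 3 genes the other 3 arrays lay close together and Aspp1-/-p53-/- stood below them.

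Against p53-/-, 13 of 17 of the late genes fell (3.3% of all genes), and 9 with normexp background correction. The 13 include Olfm4, which is measured in that comparison through the p53-/- array alone, and without it 12 of 16 fell. Against Aspp1-/-, 12 of 16 fell (1.94% of all genes), and 7 with normexp background correction. In Aspp1-/- against WT 0 of 16 fell (2.15% of all genes) and in p53-/- against WT 0 of 17 (1.52% of all genes). Olfm4, which encodes the granule protein olfactomedin 4, rose in p53-/- against WT by 3.48 or more. Retnlg, a resistin-like secreted protein of neutrophils, had the lowest value against WT, -2.35. Cebpe and Fcnb, the members of the early set with the lowest values on the same array, were at -0.54 and -0.53 by their brighter probes. The second Fcnb probe, at -1.29, lies in the range of the late genes that fell. Ly6g, the surface antigen of mature mouse neutrophils, read 271 (WT), 284 (Aspp1-/-), 298 (p53-/-) and 246 (Aspp1-/-p53-/-), and the chemokine receptor gene Cxcr2 82.2, 86.0, 89.7 and 66.4, and neither passed.

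**Figure D4:**
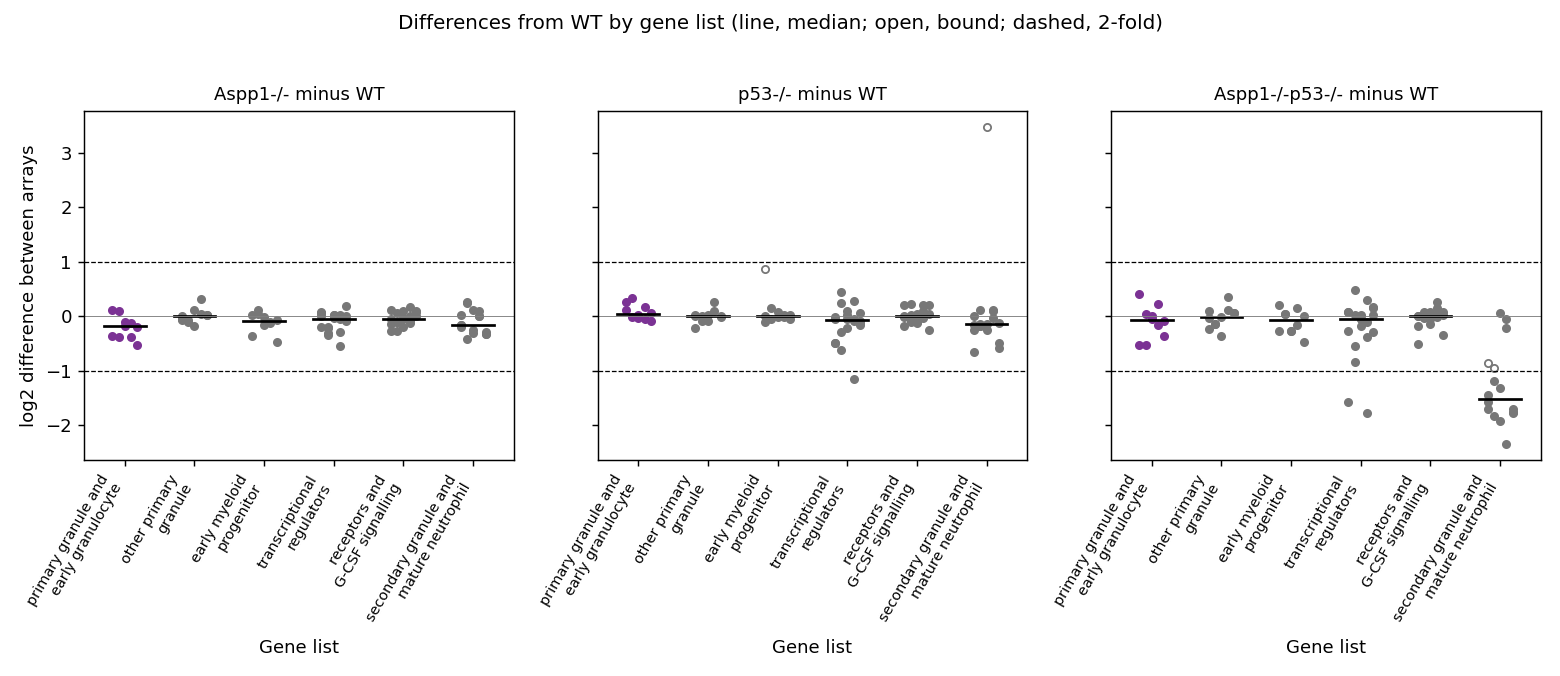
Log2 difference from WT (y axis) of each measured gene of 6 lists (x axis) in Aspp1-/-, p53-/- and Aspp1-/-p53-/- (panels), with the median as a line, bounds as open circles and 2-fold as dashed lines; the 10 primary granule and early granulocyte genes are in purple. In Aspp1-/-p53-/- the purple points lie between -0.54 and 0.40, and 11 of 16 secondary granule and mature neutrophil genes lie below -1.

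Markers of other cell types that an LSK gate could let through were read on the same arrays. The summed scaled signal of 14 monocyte, macrophage and dendritic cell markers, of which 8 to 10 were well above background on an array, was 179 (WT), 165 (Aspp1-/-), 160 (p53-/-) and 174 (Aspp1-/-p53-/-), and C1qa, C1qc and Cd209a were not well above background on any array. Siglech alone gave 95.3% of that sum in WT, and without it the sum was 8.43, 6.28, 9.69 and 9.63 in the same order, lowest in Aspp1-/-. The same sum was 19.9, 16.9, 22.2 and 19.9 for 10 B cell markers (8 or 9 well above background, Pax5 on no array), 9.27, 9.18, 9.56 and 8.73 for 10 T and natural killer cell markers (6 well above background, Cd3d, Cd3g, Cd8a and Ncr1 on no array), and 11.2, 10.4, 11.2 and 11.6 for erythroid markers (6 of 8 with a probe, Alas2 on no array). It was 19.5, 16.9, 18.6 and 18.7 for 6 megakaryocyte markers, all well above background. For these lists the Aspp1-/- array, on which 8 of the 10 early granulocyte genes were below WT, had the lowest sum for B cell, erythroid and megakaryocyte markers.

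The mast cell, basophil and eosinophil list had 6 or 7 of 8 markers well above background (Ms4a2 on no array) and a sum of 7.75, 7.10, 7.12 and 7.12. Epx and Prg2, which encode eosinophil granule proteins, fell in p53-/- (-1.32 and -1.31) and in Aspp1-/-p53-/- (-1.53 or less and -1.04) relative to WT, and Epx fell in Aspp1-/- too (-1.68). Epx signals were low, at 70.4 (WT), 23.1 (Aspp1-/-), 28.6 (p53-/-) and 16.8 (Aspp1-/-p53-/-), the last not well above background. In each comparison with WT 2 of the 7 measured markers of this list were above 0. Of all genes, 2.15% (Aspp1-/-), 1.52% (p53-/-) and 2.42% (Aspp1-/-p53-/-) fell past 2-fold against WT. The stromal and endothelial list had 5 of 7 well above background (Col1a1 and Cdh5 on no array) and a sum of 9.08, 7.17, 7.69 and 6.40, and Cxcl12, a chemokine of bone marrow stroma, and Vcam1, an adhesion molecule, fell in Aspp1-/-p53-/- against WT (-2.20 and -2.05), Cxcl12 also in p53-/- (-1.35). In Aspp1-/- against WT they were at -0.77 and -0.78. The part of these markers in the levels of the 10 genes was not tested.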

How the data were processed

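Expression was measured on 4 Agilent 1-colour mouse arrays of design 028005, 1 per genotype. The deposited scanner files hold processed intensity, which per the file headers Agilent Feature Extraction 10.7.3.1 subtracted and detrended, not normalised between arrays. They also hold raw intensity and, as other values, deposited flags of 0 or 1. The authors' value table holds log2 values centred per probe, with r = 1 to the scanner differences over 26465 probes (column medians -0.0661, -0.0422, 0.0267 and 0.0478 for WT, Aspp1-/-, p53-/- and Aspp1-/-p53-/-). The origin of its per-array constant is not given in the sources here, and its scale, centring and direction were inferred from the numbers.

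On each array 3671 control spots and the outlier-flagged spots (120 to 172) were left out and spots of a probe averaged, which left 55675 probes. Log2 processed intensity was set relative to the 75th percentile of its array. RefSeq tables named 26861 probes by accession and 4374 by symbol, while 24440 stayed transcripts. The brightest probe that passed background somewhere stood for a gene. Where the dimmer array's probe did not pass background, the difference is a bound, against the higher of its own value and that array's lowest passing signal. The number of arrays, 4, limits the precision. The additive model used limma 3.58.1 (R 4.3.3) and was tested on simulated data; other steps used Python 3.11.15.

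The genes, the lists and the rules were chosen with earlier results of these data known. The named genes are the 10 with all probes, both targeted genes, up to 4 genes past 2-fold and 3 defining genes per list and comparison, and the 5 nearest in pattern to the widest-ranging gene. The alternatives were 6 other ways to process the signals; leaving out Csf3r and using the second probes of Fcnb and Mpo were further ones chosen after seeing the data, as were the late genes without Olfm4. Some genes of the lists are not reported by name here, though they remain in the list counts and sums.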

Additional observations from a re-analysis of the deposited data

How the results depend on the processing

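With 1 array a genotype, leaving out a replicate could not be done, and the values carry no error between mice. No paired analysis was possible because each genotype has 1 array and the groups share fewer than 2 replicate numbers. Slide row coincides with the p53 and Mx1-Cre term, so it could not be fitted as a block. All 40 medians of the 10 genes under the alternatives moved by less than the median scanner error of 0.204. The main medians, from -0.19 to 0.13, were themselves smaller in size than that error, which belongs to a single gene. A median could thus have changed its sign within this limit, and none did. No scaling moved the median of all genes by more than 0.0289. The sign of a single gene's difference changed in 6 of 310 alternative values, in 5 of 50 differences, none over 0.11 in size: p53-/- against WT for Fcnb (-0.07 by its second probe) and Csf3r (0.06 with quantile normalisation), and Aspp1-/-p53-/- against WT for Mpo (0.04 by its second probe, 0.02 with quantile normalisation), Gfi1 (-0.03) and Csf3r (-0.01), both with normexp background correction. The second probes put 1 of the 10 genes, Fcnb, past 2-fold in each of the 3 comparisons with Aspp1-/-p53-/-, where the brighter probes put 0. With normexp the Fcnb differences shrank to -0.28 against WT, -0.31 against p53-/- and -0.00 against Aspp1-/-, and the mean of both probes gave -0.91, -0.93 and -0.67. The counts of all genes past 2-fold were 750, 1112, 1280, 1227 and 1207 for Aspp1-/-, p53-/- and Aspp1-/-p53-/- against WT and Aspp1-/-p53-/- against p53-/- and Aspp1-/-. They were 218, 463, 520, 550 and 489 with normexp, and 99, 208, 432, 273 and 301 over probes that passed background on every array, which tests fewer genes. With normexp the late neutrophil genes that fell past 2-fold in Aspp1-/-p53-/- went from 11 to 8 against WT. They went from 13 to 9 against p53-/- and from 12 to 7 against Aspp1-/-. The cause of the normexp changes was not tested. Fcnb, with signals of 45.8 to 184, is where signal over background limits the values most among the 10 genes.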
